A study of Mus musculus with 3 samples.

Results

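Megabase bins of the mouse autosomes that hold 20 or more L1 peaks are described here, and called peak-rich bins. Peaks were counted by their midpoint in bins of 1 Mb on chromosomes 1 to 19 (build mm9), and 276 of 2419 bins reached that number, or 11.4%. They held 6707 of the 21985 autosomal peaks, or 30.5% (95% exact binomial interval 29.9 to 31.1, which covers counting error only). Because the number of peaks chose the bins, their peak numbers, coverage and spacing are given as descriptions with no test.

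The peaks come from 1 ChIRP library of L1 RNA made from E14 ES cells, an embryonic stem cell line of the mouse kept in medium with LIF, and the series also holds 1 ChIRP library of Malat1 RNA and 1 library of input DNA from the same line. ChIRP (chromatin isolation by RNA purification) pulls down an RNA with biotinylated DNA probes, here 59 nt long, together with the chromatin crosslinked to it. Neither the Malat1 nor the input library was analysed here. With no replicate, the spread between replicates is unknown and no difference could be held against it. No treatment, genotype or time point was compared.

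L1 elements are retrotransposons that copy themselves through an RNA and have filled much of the mouse genome, and full-length copies carry a promoter and a pair of open reading frames. They are known to be unevenly spread: they gather in AT-rich, gene-poor sequence that replicates late and lies at the nuclear lamina, and are scarce in gene-dense sequence. Clusters of olfactory receptor, vomeronasal receptor and detoxification enzyme genes, which grew by repeated duplication, are known for their high L1 content. The labels name genomic DNA as the sequenced molecule while the protocol describes reverse transcription of RNA, so a peak need not mark chromatin bound by L1 RNA. The submitters' chromatin was sonicated to 2 to 5 kb.

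Peak numbers per bin tailed off without a break at the chosen limit. The median over all 2419 bins was 7 peaks, 281 bins (11.6%) held none, and the highest bin held 43. Peak-rich bins had a median of 23 peaks with quartiles of 21 and 26, so most lay close to the limit: 37 held exactly 20 and 53 of the remaining bins held 19. The bins with 20 peaks had a median coverage of 12.9% and those with 19 peaks 12.3%. Bins of 20 to 24 peaks numbered 173, those of 25 to 29 peaks 74, and those of 30 or more peaks 29.

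Coverage, the percentage of a bin's bases that lie under peaks, was several times that of the other bins. Its median was 15.8% in peak-rich bins (quartiles 13.3% and 18.7%, range 8.27% to 38.2%) and 3.79% in the 2143 other bins. The peak-rich bins made up 45.7 Mb of the 144.8 Mb under peaks, or 31.5%. Coverage and peak number did not pick quite the same bins. Of the 276 bins with the highest coverage, 210 (76.1%) also held 20 or more peaks. Coverage ranges overlapped: 404 other bins were covered at least as much as the least covered peak-rich bin, and 14 reached the peak-rich median. Coverage above 20% was found in 48 peak-rich bins and above 30% in 5.

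**Figure D1:**
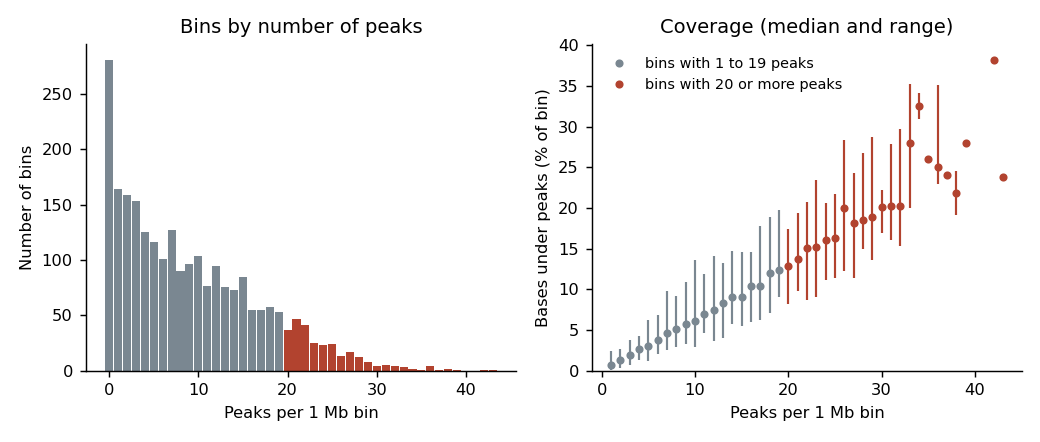
Left, number of 1 Mb bins of chromosomes 1 to 19 (y axis) by the number of peaks they hold (x axis), with bins of 20 or more peaks in red. Right, bases under peaks as a percentage of the bin (y axis) by number of peaks (x axis), as the median (point) and the lowest to highest bin (line); median coverage is 12.3% at 19 peaks and 12.9% at 20, and bins of equal number differ widely in coverage.

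The 2 bins at the extremes of coverage both lay on chromosome 7. The bin from 5000001 to 6000000 held 42 peaks under which 38.2% of its bases lay. Its median peak width was 7728.5 bp and 35.7% of its peaks were wider than 10 kb. The bin from 23000001 to 24000000 of the same chromosome, with 20 peaks, was covered to 8.27%, at a median width of 3631.5 bp. The median gap between peaks was 2.57 kb in the first bin and 26.8 kb in the second, with 19 and 6 gaps under 1 kb. Peak-rich bins thus ranged from many wide, closely set peaks to fewer, narrower ones with a longer median gap.

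The 10 bins with the most peaks held 36 to 43 each, on 9 chromosomes. Chromosome 19 from 39000001 to 40000000 was first with 43 peaks, which were rather narrow, with a median of 4819 bp, and covered 23.8%. The Cyp2c cluster, a family of cytochrome P450 enzymes that oxidise drugs and fatty acids, is known to lie in this stretch. In RefSeq's order of protein-coding genes (GRCm38.p6, used for names and neighbours only), 14 of the 15 Cyp2c genes of chromosome 19 follow one another without interruption, from Cyp2c55, after Hells, to Cyp2c70, before Pdlim1. Chromosome 7 from 5000001 to 6000000 followed with 42 peaks, in a region known for Vmn1r genes, receptors of the vomeronasal organ.

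Olfactory receptor genes, which code for odour receptors of the nasal epithelium, are known on chromosome 16 from 19000001 to 20000000. That bin held 36 peaks that covered 35.1%, and 44.4% of its peaks were wider than 10 kb, the highest percentage among the bins of 30 or more peaks. Vmn2r genes, the other large vomeronasal receptor family, are known near chromosome 5 from 109000001 to 110000000, where 36 peaks covered 23.0%. In the same gene order 10 of the 11 Vmn2r genes of chromosome 5 are uninterrupted, from Vmn2r8 to Vmn2r17. These gene positions are background knowledge: no mm9 annotation was used, so no gene was placed in a bin and no family was counted.

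The other 6 of these bins were spread over 5 chromosomes, and no gene family is named for them here. Chromosome 8 from 62000001 to 63000000 held 39 peaks and chromosome 17 from 55000001 to 56000000 held 38. Chromosome 18 from 90000001 to 91000000 also held 38, although only 7 of its windows of 100 kb held a peak, since the last peak of the chromosome lies in it. On chromosome 1, the bin from 46000001 to 47000000 held 37 peaks and that from 103000001 to 104000000 held 36. Chromosome 6 from 131000001 to 132000000 held 36 peaks with 26.6% coverage.

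Peak width was not used to choose the bins, and the typical width was nearly the same inside and outside. The median was 6445 bp in peak-rich bins (quartiles 4098.5 and 8408.5 bp) and 6355 bp in the others (4113 and 8052 bp). The difference of 90 bp had a 95% interval of -5.27 to 170 bp, computed from the order statistics of single peaks, which are not replicates. By chromosome, the median was higher in peak-rich bins on 14 of 19, with differences from -458 bp on chromosome 5 to 574 bp on chromosome 19. With peaks closer than 1 kb merged before counting, the difference was 377.5 bp, and with 15 or more peaks per bin it was -42.5 bp.

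The wide end of the distribution differed more than its centre. Peaks wider than 10 kb made up 14.3% of the peaks in peak-rich bins (13.4 to 15.1) and 11.2% in other bins (10.7 to 11.7), a difference of 3.05 percentage points (2.07 to 4.04). The percentage was higher in peak-rich bins on 16 of 19 chromosomes, and the difference stayed between 2.71 and 3.42 points with any 1 chromosome left out. Wider than 15 kb were 3.71% and 2.21%. That percentage went up below the limit too, from 1.04% in bins of 1 to 4 peaks to 2.84% in bins of 15 to 19. It was 3.25% in bins of 20 to 24 and 6.09% in bins of 30 or more. Among the classes below the limit the percentage of peaks wider than 10 kb had no trend, with 11.9% in bins of 1 to 4 peaks and 11.2% in bins of 15 to 19. It was 12.7% in bins of 20 to 24, 14.8% in bins of 25 to 29 and 18.97% in bins of 30 or more (16.6 to 21.6). The limit itself marked no rise. Bins of exactly 19 peaks had 13.01% and those of exactly 20 had 11.2%, with overlapping intervals. Single bins of 30 or more peaks ranged from 2.63% to 44.4% with a median of 15.4%, and with any 1 of these 29 bins left out the pooled value was 18.0% to 19.6%.

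Peaks of 6 to 7.5 kb, the size range around that of a full-length mouse L1, were a smaller part of the peaks in peak-rich bins. They made up 21.6% of peaks in peak-rich bins (20.6 to 22.6) and 24.1% in the others (23.4 to 24.8), and 17.2% in bins of 30 or more (14.9 to 19.7). The limit of 20 peaks marked no step, with 23.5% in bins of 15 to 19 peaks and 22.9% in bins of 20 to 24. Bins of exactly 19 peaks had 20.1% and those of exactly 20 had 22.7%. Narrow peaks, under 2 kb, were 3.86% and 4.48%. Peaks with another within 1 kb made up 24.8% in peak-rich bins and 13.3% in the others, and the part that joining of close peaks by the caller has in these widths was not tested. Among the 276 peak-rich bins, peak number did not track median width (Spearman 0.01), and coverage tracked both peak number (0.64) and median width (0.66). Coverage adds up the bases under a bin's peaks, so its link to both is largely built in. The bins share 1 library and neighbours are alike, so these are descriptions.

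**Figure D2:**
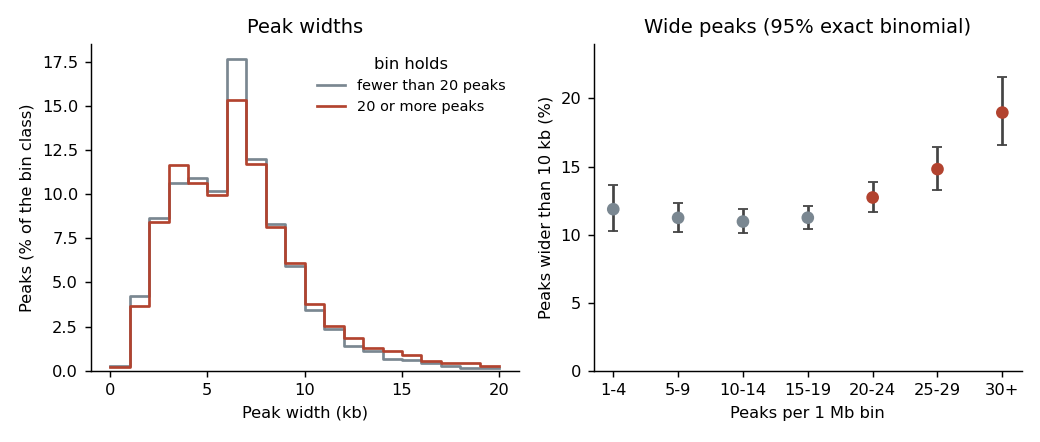
Left, peak widths in kb (x axis, classes of 1 kb) as a percentage of the peaks (y axis) in bins with 20 or more peaks (red) and in other bins (grey); the 74 and 88 peaks of 20 kb or wider are not drawn. Right, percentage of peaks wider than 10 kb (y axis) by number of peaks in the bin (x axis) with 95% exact binomial intervals, which lies near 11% in the classes below 20 peaks and reaches 18.97% at 30 or more.

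Inside peak-rich bins the gap from one peak's end to the next one's start had a median of 18.4 kb, with quartiles of 5.21 and 41.8 kb. In other bins the median gap within a bin was 40.5 kb. Gaps under 1 kb made up 14.1% of the 6431 gaps in peak-rich bins and 7.86% in the others. A neighbour within 10 kb was found for 56.1% of peaks in peak-rich bins (54.9 to 57.3) and 33.2% elsewhere (32.5 to 34.0), and the value was higher in peak-rich bins on 19 of 19 chromosomes. That share goes up with density by itself, from 9.58% in bins of 1 to 4 peaks through 43.9% at 15 to 19 to 68.6% at 30 or more. Peaks more than 100 kb from any other numbered 50 of 6707 in peak-rich bins, and 1915 of 15278 in the others.

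The most gaps under 1 kb in a peak-rich bin, 19, were found on chromosome 7 from 5000001 to 6000000, where the median gap was 2.57 kb. The lowest median gap, 2.43 kb, was that of chromosome 14 from 3000001 to 4000000. On chromosome 19 from 39000001 to 40000000, with 43 peaks, the median gap was 14.5 kb and 10 gaps were under 1 kb. Peaks were spread over most of the length of a typical peak-rich bin. Cut into 10 windows of 100 kb, 86 of 276 had a peak in all 10 windows, 102 in 9 and 57 in 8. Even so, 226 had a gap over 100 kb, and 59 a gap over 200 kb.

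Evenness within a bin did not set peak-rich bins apart. The ratio of the variance to the mean of peak numbers over the 10 windows, which would be near 1 for peaks placed at random within a bin, had a median of 1.13 in peak-rich bins and 1.16 in bins of 15 to 19 peaks. Its quartiles were 0.78 and 1.54, and 0.79 and 1.57. The most even peak-rich bin, on chromosome 1 from 48000001 to 49000000, had 27 peaks with at most 4 in a window (ratio 0.25). The least even, on chromosome 14 from 51000001 to 52000000, had 25 peaks in only 5 windows, 12 of them in 1 window, beside a gap of 427.5 kb (ratio 5.89).

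Peak-rich bins occurred on every autosome, but 71 of 276 lay on chromosomes 1 and 3. Chromosome 3 had 38, or 24.2% of its bins, and these held 47.3% of its peaks. Chromosome 1 had 33 (16.9%), and chromosomes 7, 4 and 6 had 15.5%, 15.3% and 15.0%. Chromosome 11 was lowest at 5.04%, with 6 bins, followed by chromosome 18 at 5.68%, with 5. A chromosome with few such bins could still hold many of its peaks there. Chromosome 19 had 5 of them, or 8.47% of its 59 bins, with 36.3% of its peaks. Its other bins had a median of 3 peaks.

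The centromeric ends, where numbering of mouse chromosomes starts, were richer in such bins than the opposite ends. Of the first 10 bins of each chromosome, 45 of 190 were peak-rich (23.7%, 17.8 to 30.4), against 9 of 190 of the last 10 (4.74%, 2.19 to 8.80) and 222 of 2039 in between (10.9%, 9.57 to 12.3). The 45 lay on 16 chromosomes and the 9 on 6. These intervals treat bins as independent, which neighbouring bins are not.

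The 276 bins formed 192 runs of adjacent bins. Bins with no peak-rich neighbour numbered 141, and 135 (48.9%, 42.9 to 55.0) lay in 51 runs of 2 or more. That interval treats bins as independent, which adjacent bins are not. Counted by single adjacent bins, 30.7% were peak-rich, against 11.4% of all bins. There were 32 runs of 2 Mb, 12 of 3 Mb, 3 of 4 Mb, 3 of 5 Mb and 1 of 8 Mb. Bins in runs and bins alone were alike in number, with a median of 23 peaks each, and 15 and 14 of them held 30 or more. Their median coverage was 16.3% and 15.2%. The highest bin in a run held 37 peaks, and the 5 highest bins of all stood alone.

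**Figure D3:**
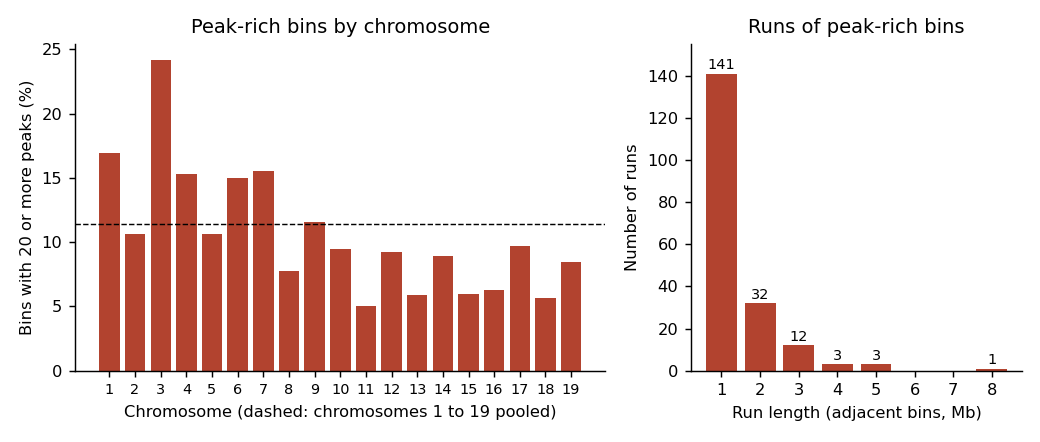
Left, bins with 20 or more peaks as a percentage of the bins of each chromosome (y axis), with the pooled value of 11.4% dashed; chromosome 3 reaches 24.2% and chromosome 11 is at 5.04%. Right, number of runs of adjacent peak-rich bins (y axis) by run length in Mb (x axis), with 141 bins standing alone and 1 run of 8 Mb.

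The 7 runs of 4 Mb or more lay on chromosomes 1, 3, 4, 7 and 10. On chromosome 3 the run from 10000001 to 18000000 had 21, 28, 28, 20, 23, 33, 26 and 25 peaks in its 8 bins, with coverage from 12.4% to 28.0%. Before it came a bin of 7 peaks and one of 19, and before those the run from 3000001 to 8000000, with 28, 25, 22, 23 and 23 peaks. The first 15 bins of chromosome 3 that hold peaks were therefore all peak-rich except for 2, and 1 of the exceptions lacked 1 peak.

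Chromosome 1 began in the same way, with 32, 21, 25, 22 and 23 peaks from 3000001 to 8000000, followed by a bin of 18. Farther along it, from 44000001 to 49000000, bins of 28, 21, 37, 25 and 27 peaks stood between bins of 8 and 14. Chromosome 7 from 12000001 to 16000000, a region known for Vmn1r genes and for Sult2a genes, which code for sulfotransferases, had 22, 23, 34 and 32 peaks. It had the highest coverage of the 7 runs, 24.2%, and the highest median width, 7610 bp. The other 6 runs were covered to between 16.0% and 19.7%. The runs on chromosome 4 from 24000001 to 28000000 and chromosome 10 from 46000001 to 50000000 held 92 and 97 peaks.

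Most borders of peak-rich bins were a step down to a bin of 10 to 19 peaks, and a minority faced a sparse bin. The mean was 24.2 peaks in the bin inside the border and 11.7 in the facing bin. A border is the edge between a peak-rich bin and an adjacent bin with fewer peaks, and there were 379. The median drop was 11 peaks (quartiles 7 and 17, range 1 to 43), and 64 borders dropped by 5 peaks or fewer. The facing bin held 15 to 19 peaks at 145 borders (38.3%, 33.3 to 43.4) and 10 to 14 at 116 (30.6%). Bins of 15 to 19 peaks make up 14.3% of all bins that are not peak-rich. Sparse bins, with 4 or fewer peaks, are 36.5% of all bins and 41.2% of those that are not peak-rich, but faced 46 borders (12.1%, 9.02 to 15.9). At 17 of these the facing bin held no peak.

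With distance from the border the mean number of peaks approached that of all bins, 9.09. It was 11.7 in the facing bin, which by definition is not peak-rich, 12.8 in the next, where peak-rich bins are counted again, 10.7 at 5 bins and 9.78 at 10 bins. Of the 547 bins adjacent to a peak-rich bin, 168 (30.7%) were peak-rich themselves, against 11.4% of all bins.

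The bins of highest number had no richer surroundings. Bins of 20 to 24, 25 to 29 and 30 or more peaks had adjacent bins with means of 15.7, 15.8 and 15.0 peaks. Adjacent bins were peak-rich in 28.2%, 34.7% and 35.7% of cases. They were sparse in 6.10%, 10.9% and 16.1%, the last being 9 of 56 adjacent bins, so the densest class had both kinds of neighbour. In bins of 1 to 14 peaks the percentage of sparse neighbours goes down with number, from 59.7% at 1 to 4 peaks to 18.2% at 10 to 14.

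**Figure D4:**
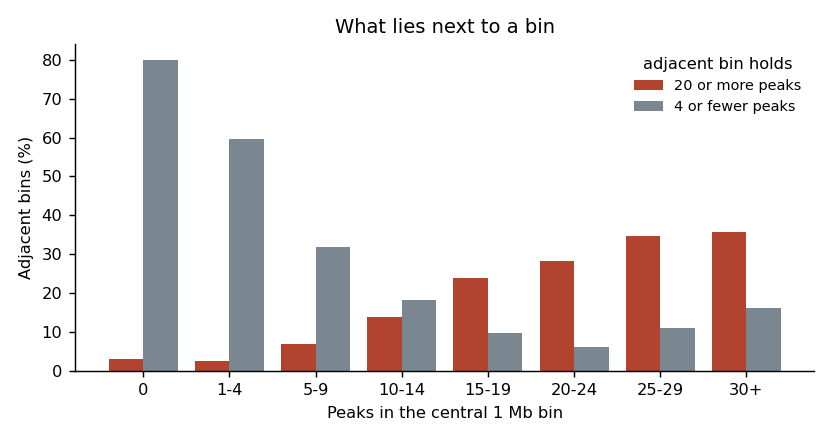
Percentage of adjacent 1 Mb bins (y axis) that hold 20 or more peaks (red) or 4 or fewer (grey), by number of peaks in the central bin (x axis). Peak-rich neighbours reach 35.7% next to bins of 30 or more peaks, and sparse neighbours are lowest, 6.10%, next to bins of 20 to 24.

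At the 46 borders that face a sparse bin the mean number of peaks went down between 500 kb inside the edge and 200 kb outside it. Windows of 100 kb from 500 to 400 kb inside the edge held a mean of 3.26 peaks (95% exact Poisson interval 2.76 to 3.83), and those from 200 to 100 kb inside 2.35 (1.93 to 2.83). The last window inside held 1.43 (1.11 to 1.83), the first outside 0.54 (0.35 to 0.80) and the second outside 0.11 (0.04 to 0.25). From there to 1000 kb outside, the mean stayed between 0.09 and 0.17. A bin edge falls at a round position and not where the peaks end, so the mean over borders is less steep than a single border can be.

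Single borders were also measured without averaging, but their facing bins had been chosen as sparse. The distance ran from the midpoint of the last peak inside to that of the first outside. Its median over the 46 borders was 890 kb, and it was over 500 kb at 25. At 17 of the 46 the facing bin held no peak, so the distance there had to be longer than a bin. Long distances therefore largely restate the choice of sparse bins and do not show how sharp a border is. The last 10 peaks inside spanned a median of 298 kb. The median distance from the last peak to the bin edge was 66.5 kb. At 12 of the 46 the distance between the last and the first peak was 100 kb or less, so the sparse bin there began with a peak close to the edge.

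**Figure D5:**
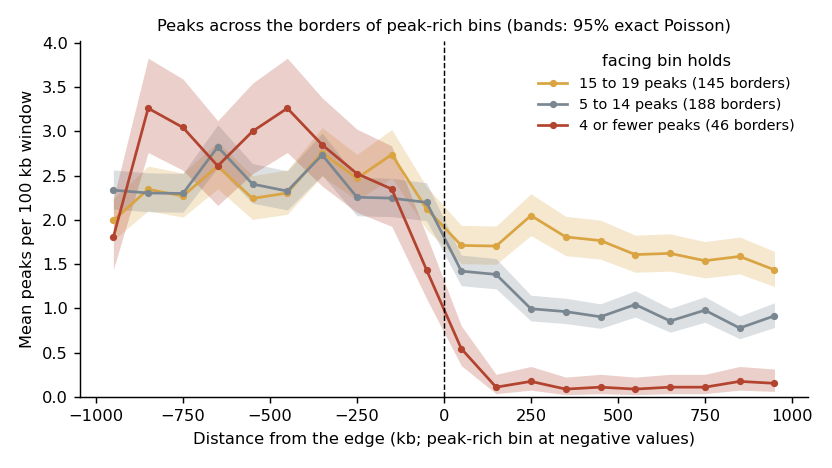
Mean number of peaks per 100 kb window (y axis) by distance from the edge of a peak-rich bin in kb (x axis, negative values inside), for borders whose facing bin holds 4 or fewer (red, 46 borders), 5 to 14 (grey, 188) or 15 to 19 peaks (yellow, 145), with 95% exact Poisson bands. The red line goes from 2.35 to 0.11 between the second window inside and the second outside. The classes were chosen by the facing bin's own number, so their order outside the edge is given by that choice.

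The 5 largest drops belonged to 3 bins. Chromosome 19 from 39000001 to 40000000 faced a bin with no peak on its centromeric side, where windows from the edge inward held 2, 4, 7, 7 and 6 peaks and the 10 windows outward held none. The next peak on that side lay 1229 kb from the last one inside. On its other side the facing bin had 6 peaks, all between 100 and 300 kb from the edge. Chromosome 17 from 55000001 to 56000000 dropped from 38 peaks to 1. Chromosome 7 from 5000001 to 6000000 dropped from 42 peaks to 6 on one side and to 8 on the other.

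Sparse bins on both sides made islands of 5 peak-rich bins, named here after their values were seen. Chromosome 10 from 78000001 to 79000000 held 29 peaks, with 28.7% coverage, between bins of 0 and 0. Chromosome 5 from 146000001 to 147000000 held 21 peaks between bins of 0 and 0. The nearest peaks outside that bin lay 3755 and 2100 kb from its outermost ones. Chromosome 11 from 73000001 to 74000000, with 24 peaks, and chromosome 12 from 102000001 to 103000000, with 30, each stood between bins of 0 and 3. The fifth was the bin on chromosome 16 described above, between bins of 4 and 3. The regions on chromosomes 10, 11 and 16 are known for olfactory receptor genes. That on chromosome 5 is known for Cyp3a genes, cytochrome P450 enzymes that clear many drugs. For the region on chromosome 12 no family is named here. Whether the peaks lie at any of the named genes was not tested.

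The same rule applied to X, which lay outside it, gave 31 of 164 bins (18.9%). These had the same median number, 23 peaks, but a lower median coverage, 13.6%, and a median width of 5989 bp. Wide peaks, over 10 kb, were 7.78% there (5.94 to 9.96) and 5.61% in other bins of X (4.48 to 6.92), so the intervals overlap. The X runs were 3 Mb at most, and 2 of 41 borders on X faced a sparse bin, where sparse bins are 9.15% of all.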

How the data were processed

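One deposited peak list of the L1 RNA ChIRP library was used. It gives chromosome, start and end of each of 24666 peaks in bp, with no header, height, fold or score. CASAVA, Bowtie2 2.2.2, MACS 1.4.2 and the build mm9 appear in the submitters' processing notes, which state neither role nor setting. The caller's thresholds, its control and the treatment of reads that map to many copies are not given in any source used here, and the last bears on peaks at L1 copies of nearly equal sequence. Read depth is unknown.

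Bins run from that of a chromosome's first peak to that of its last, with positions printed from 1. Neighbouring peaks did not overlap. Coverage counts bases in the bin that holds them, and gaps are edge to edge. Intervals (95%) are exact binomial for shares, exact Poisson for means of counts, order-statistic for medians, and a square-and-add combination for differences, and cover counting error only. Assembly gaps were not removed. Python 3.11.15, numpy 2.4.6, pandas 2.3.3, scipy 1.17.1 and matplotlib 3.10.9 were used, and scripts were tested on simulated peaks.

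Bins named by rule were the 10 with the most peaks, runs of 4 or more, the 5 largest drops and the extremes of coverage. Other bins, among them those with the lowest median gap and the most and least even ones, were named after their values were seen. The rule for the bins, the limits and the lists were chosen with earlier results of these data known. RefSeq tables given here are of GRCm38.p6, another build, so the planned counts of gene families in bins were not made and no sequence is shown.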

Additional observations from a re-analysis of the deposited data

Results flagged for a closer look

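Peaks outside the comparisons were present: 464 peaks lay on 10 unplaced sequences, whose pieces have no known order, and 40 on chromosome Y. Both are signal in data that neither the autosomal bins nor the bins of X use, and no control library was analysed here that would give their background.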

How the results depend on the processing

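The bins are defined by a count, so most values move with the definition, and a move here means beyond the counting interval or, for numbers of bins and run lengths, beyond 1.5 times. Values are compared in the order number of peak-rich bins, percentage of autosomal peaks in them, median coverage, longest run and percentage adjacent to another such bin. At 15 or more peaks per bin they were 582, 53.9%, 12.7%, 14 Mb and 71.0%, and at 25 or more 103, 13.4%, 19.1%, 3 Mb and 23.3%. With peaks closer than 1 kb merged they were 172, 19.6%, 17.5%, 5 Mb and 38.4%, and with peaks closer than 5 kb merged 90, 10.7%, 19.6%, 2 Mb and 15.6%. Bins of 0.5 Mb with 10 or more peaks gave 687, 40.1% of peaks, a longest run of 3.5 Mb and 58.2% adjacent. The number and the percentage adjacent count bins of 0.5 Mb here, so neither can be set beside those of 1 Mb bins. Bins that start 0.5 Mb later held 29.2% of peaks and 56.8% were adjacent to another. The same number of bins chosen by covered bases held 29.2% of peaks. Without chromosome 3 the percentage of peaks was 28.9% and the longest run 5 Mb.

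The median gap was 22.3 kb at 15 or more peaks, 14.9 kb at 25 or more, 22.2 and 25.3 kb after the merges at 1 and 5 kb, and 17.3 kb in bins of 0.5 Mb. The excess of peaks with a neighbour within 10 kb was 25.7 points at 25 or more, 27.3 in bins of 0.5 Mb, and 19.9 and 15.1 after the merges. The difference in median width was -42.5 bp at 15 or more, 377.5 and 537 bp after the merges, and 610.5 bp for bins chosen by covered bases, a choice that itself favours wide peaks. The excess of peaks wider than 10 kb, looked at after seeing the data like its alternatives, was above 0 in all 9. Not all 9 could have differed, since leaving out empty bins cannot change a share of peaks. The merges widen peaks, and the choice by covered bases favours wide ones. The excess was 1.76 points at 15 or more, 4.69 at 25 or more, 6.58 and 7.27 after the merges and 9.10 by covered bases. In the other 4, the one without empty bins among them, it lay within the counting interval. The facing bin had a mean of 8.66 peaks at 15 or more, 13.7 at 25 or more, 12.1 after the 5 kb merge, 11.2 by covered bases and 12.3 without empty bins. In bins of 0.5 Mb it was 5.63, which counts peaks per 0.5 Mb and cannot be set beside the means per 1 Mb. Borders facing a sparse bin were 18.5% at 15 or more, 16.7% by covered bases and 8.01% without empty bins, which removes the emptiest neighbours. Gene family counts under other placements were not run, since no mm9 annotation was used. No paired analysis was possible because only 1 library was analysed. Read depth is unknown, so a sparse bin may hold signal below the caller's threshold.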

Other observations

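Peak-rich bins differed among themselves in the kind of peaks they held. The bin medians of width ranged from 3486.5 to 9935.5 bp, with quartiles of 5593 and 7158 bp. The lowest were those of chromosome 7 from 60000001 to 61000000, with 22 peaks, and chromosome 15 from 19000001 to 20000000, with 23 peaks and a median of 3494 bp. Neither held a peak wider than 10 kb. The highest was that of chromosome 19 from 9000001 to 10000000, where 46.2% of 26 peaks were wider than 10 kb and the adjacent bin after it held 0 peaks. Chromosome 3 from 22000001 to 23000000 followed with 8942 bp and 35.2% coverage from 33 peaks. In chromosome 12 from 115000001 to 116000000, 20 peaks covered 8.99%. These bins were named after their values were seen.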
